A study of Mus musculus with 3 samples.

Results

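Expression of 7 genes of the alarmin and type 2 cytokine axis was examined in single cells of mouse inguinal fat. The genes were Il33, Tslp, Il1rl1, Gata3, Il5, Il13 and Areg, and all 7 were found by symbol among the 31053 features of the matrices. Transcripts had been counted as unique molecular identifiers (UMIs) with a droplet method that reads the 3′ ends of mRNAs, after dead cells and red cells had been removed. There were 3 libraries, 1 for each genotype. The first came from mice with Pdgfra-Cre and floxed Tert (Pdgfra-Cre; TERT fl/fl), the second from mice with Pdgfrb-Cre and floxed Tert (Pdgfrb-Cre; TERT fl/fl), and the third from wild type mice (TERT +/+). The sample titles also carry A, KO and PBS in that order, which the labels do not explain, so any treatment that they name cannot be told apart from genotype in the ratios to wild type. Telomerase takes its catalytic subunit from Tert, and Cre removes floxed sequence in cells in which its promoter is or was active. The labels give no age, sex or number of animals, and no library with Cre alone or with floxed alleles alone was analysed here.

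Interleukin-33 and thymic stromal lymphopoietin are alarmins, cytokines released by structural cells at damaged or stimulated barriers and in connective tissue. IL-33 signals through ST2, the product of Il1rl1, on mast cells, group 2 innate lymphoid cells and a subset of regulatory T cells, and these cells can answer with IL-5, IL-13 and amphiregulin. In mouse adipose tissue this circuit is known for keeping eosinophils, ST2-bearing regulatory T cells and innate lymphoid cells in place, and Gata3 encodes the transcription factor that the lymphoid members share.

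Filtering left 1409 Pdgfra-Cre cells (median 7506 UMIs), 3903 Pdgfrb-Cre cells (5690 UMIs) and 2668 wild type cells (3322 UMIs). Clusters were made without the 7 genes and named by markers, 24 of 29 receiving a name. The stromal class (fibroblast-type cells with Pdgfra, Dcn and collagen transcripts) held 621, 572 and 251 cells, but its median depth was 9677 UMIs in Pdgfra-Cre cells, 10537 in Pdgfrb-Cre cells and only 1667 in wild type cells. The T cell class held 165, 1445 and 592 cells at 5823, 6220 and 5327.5 UMIs. Libraries shared at most 5 barcodes pairwise. Tert itself cannot serve as a check of the genotypes, with 4, 1 and 3 UMIs in the stromal class. Leukocyte transcripts were present in the stromal class, where T cell markers summed to 5.61 CPM (UMIs of a gene scaled to a common total per class) in Pdgfra-Cre, 24.6 CPM in Pdgfrb-Cre and 253 CPM in wild type cells. No p-value was computed, because each genotype had 1 library. Intervals given with values are exact 95% intervals that cover counting error only, and differences between animals were not measured.

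Il33, the gene of interleukin-33, had 368 UMIs in Pdgfra-Cre, 1251 in Pdgfrb-Cre and 86 in wild type cells. The gene (ENSMUSG00000024810) lies on chromosome 19 at 29925114 to 29960718 of GRCm38, on the plus strand. In the stromal class its level was 16.3 CPM (13.2 to 19.96) in Pdgfra-Cre cells, 190 CPM (179 to 201) in Pdgfrb-Cre cells and 84.4 CPM (66.2 to 106) in wild type cells. The 3 intervals did not overlap, and the order was Pdgfrb-Cre, then wild type, then Pdgfra-Cre. The Pdgfra-Cre level was 5.18-fold lower than wild type (3.76 to 7.10), and the Pdgfrb-Cre level was 2.25 times wild type (1.78 to 2.89). Both ratios share the wild type library. In the stromal class, 6 mesothelial markers summed to 151 CPM (862 UMIs) in Pdgfra-Cre, 24.6 CPM (151 UMIs) in Pdgfrb-Cre and 10.3 CPM in wild type. All 6 were detected in Pdgfra-Cre, and 3 of 6 in each of the other libraries. Msln and Lrrn4 were at 0 in both of those libraries. Wt1, 1 of the 6 and a transcription factor of mesothelium and of visceral fat stroma in mice, was at 150 CPM in the main Pdgfra-Cre cluster. Its 778 UMIs there were most of the 862, while Msln, Upk3b and Krt19 had 5, 6 and 5 UMIs there. Krt19 ran the other way, and its UMIs in cluster 10 were 126 of the 151 in Pdgfrb-Cre. The part of these differences in the Il33 ratio was not tested.

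Il33 UMIs were found in 50 of 621 Pdgfra-Cre stromal cells (8.05%), 261 of 572 Pdgfrb-Cre stromal cells (45.6%) and 36 of 251 wild type stromal cells (14.3%). With every cell thinned to 1000 UMIs, the expected shares were 1.36% in Pdgfra-Cre, 12.3% in Pdgfrb-Cre and 7.34% in wild type cells. Thinning therefore kept the order of the libraries and narrowed the gap between Pdgfrb-Cre and wild type. B cells, taken as the class without the gene, had an Il33 UMI in 2 of 953 Pdgfrb-Cre cells (0.210%, at a median of 3295 UMIs) and in none of 25 Pdgfra-Cre or 613 wild type cells, which allows shares of up to 12% and 0.489%.

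Outside the stromal class, the source of Il33 differed between libraries. The mesothelial class consisted of 123 Pdgfra-Cre cells and no cell of the other libraries, and it held 250 Il33 UMIs, which gave 144 CPM (126 to 163) with a UMI in 74 cells (60.2%). It supplied 67.9% of all Il33 UMIs of the Pdgfra-Cre library, against 25.3% from its stromal class. In the other libraries the stromal class supplied most of the Il33 UMIs, 93.2% in Pdgfrb-Cre and 86.0% in wild type. Lymphatic endothelial cells had 87.0 CPM (49.7 to 141) in Pdgfra-Cre on 15 cells and 139 CPM (63.6 to 264) in Pdgfrb-Cre on 5 cells. Of the remaining Pdgfrb-Cre UMIs, 67 came from 1 cell of the unnamed cluster 17, a barcode of 110420 UMIs. In wild type, 10 of the non-stromal Il33 UMIs lay in the unnamed cluster 13, which was led by the endothelial genes Aqp1, Selp and Plvap. The named blood endothelial class had no Il33 UMI in either Cre library and 1 in the wild type library.

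**Figure D1:**
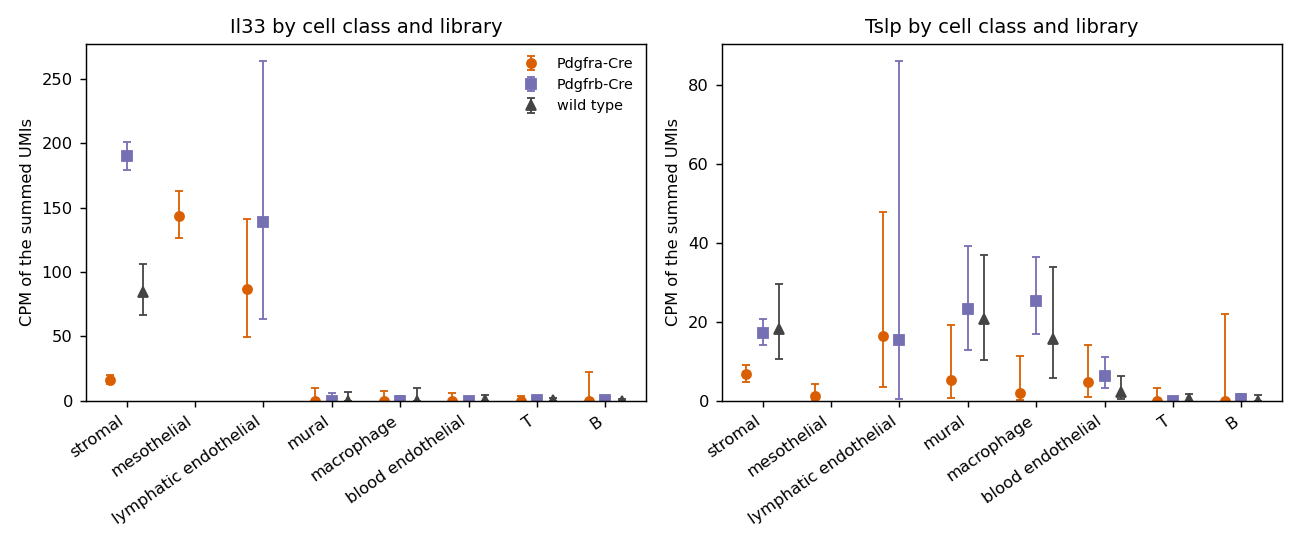
Il33 (left panel) and Tslp (right panel) as CPM of the UMIs summed over each cell class (horizontal axis), for the Pdgfra-Cre, Pdgfrb-Cre and wild type libraries. Points are single libraries and bars are exact 95% Poisson intervals; Il33 stands at 16.3, 190 and 84.4 CPM in the stromal class and at 144 CPM in the mesothelial class, which only the Pdgfra-Cre library held.

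The stromal difference went together with which clusters each library filled. Of the Pdgfra-Cre stromal cells, 500 lay in cluster 4, where Il33 was at 10.8 CPM (8.15 to 14.0). Of the Pdgfrb-Cre stromal cells, 318 lay in cluster 10, where it was at 253 CPM (238 to 269) on 999 UMIs, with a UMI in 222 cells (69.8%). Wild type had no cell in clusters 4 or 10, and its 30 cells of cluster 25 had no Il33 UMI, an interval of 0 to 39.2 CPM.

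Clusters 8 and 12 contained cells of every library, and there the Il33 levels stood closer together. Their Pdgfra-Cre cells still differed in other genes, with Wt1 at 154 CPM in cluster 8 and 83.3 CPM in cluster 12, against 0 in Pdgfrb-Cre in both and 0 and 1.64 CPM in wild type. In cluster 8 Il33 was at 92.3 CPM in Pdgfra-Cre, 72.9 CPM in Pdgfrb-Cre and 114 CPM in wild type cells, and both ratios to wild type had intervals that included 1 (0.807, 0.427 to 1.54, and 0.637, 0.398 to 1.07). In cluster 12, which held 187 of the wild type cells, Il33 was at 29.4 CPM in Pdgfra-Cre, 92.8 CPM in Pdgfrb-Cre and 88.8 CPM in wild type cells. There the Pdgfra-Cre ratio was 0.331 (0.116 to 0.768) on 6 UMIs and the Pdgfrb-Cre ratio was 1.04 (0.577 to 1.81). With the clusters that came almost wholly from 1 library left out, the ratios to wild type were 0.684 (0.432 to 1.06) for Pdgfra-Cre and 0.790 (0.596 to 1.05) for Pdgfrb-Cre. The 2.25-fold higher Il33 of the Pdgfrb-Cre stroma was thus not seen outside cluster 10, and cluster and library cannot be told apart there.

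Pi16 and Dpp4 mark interstitial progenitors, a fibroblast population of mouse subcutaneous fat. Stromal cells with a UMI of either gene had Il33 at 36.0 CPM in Pdgfra-Cre, 230 CPM in Pdgfrb-Cre and 78.0 CPM in wild type. Stromal cells without one had 8.54 CPM in Pdgfra-Cre, 30.8 CPM in Pdgfrb-Cre and 95.9 CPM in wild type. By CPM, Il33 was thus higher in the Pi16 or Dpp4 cells of both Cre libraries. The intervals of the wild type groups overlapped (56.6 to 105 and 64.7 to 137 CPM). In the wild type cells without either gene, the top cell held 30% of the Il33 UMIs. By share of cells with an Il33 UMI, wild type was also higher with either gene, at 18% against 8.91% without. These intervals overlapped too (12.2% to 25.1% and 4.16% to 16.2%). After thinning, the wild type shares were 9.71% and 3.70%.

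Across 36 sums of class and library with at least 20 cells, the genes whose log2 level followed Il33 most closely were Nhsl1 (Pearson r = 0.914), Sema3c (r = 0.867) and Zfhx4 (r = 0.866). These points share libraries and depth, and the correlations describe them only.

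**Figure D2:**
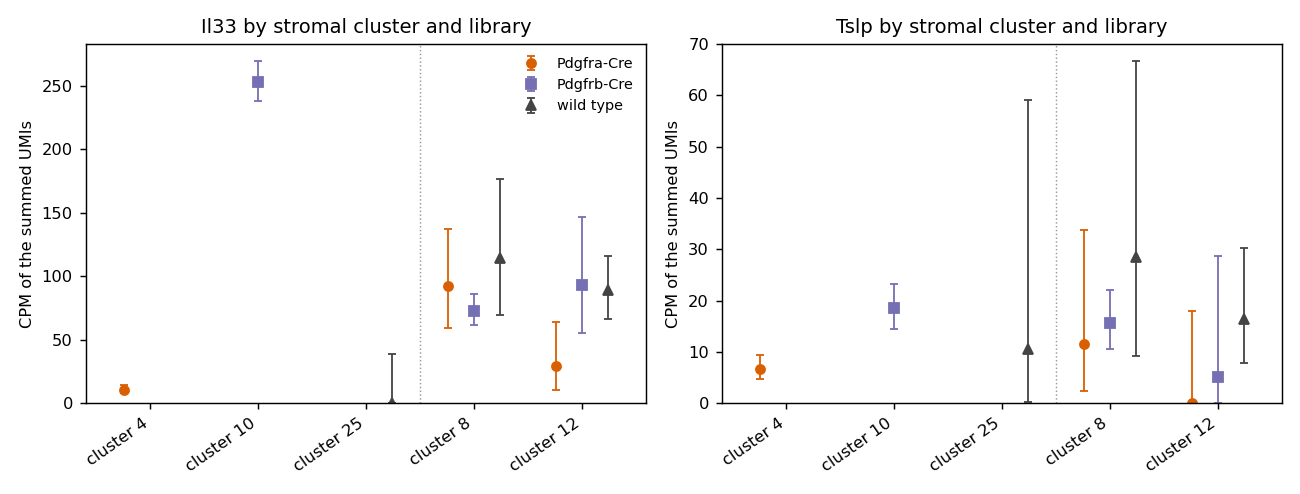
Il33 (left panel) and Tslp (right panel) as CPM in each stromal cluster (horizontal axis) with at least 20 cells of a library, for the Pdgfra-Cre, Pdgfrb-Cre and wild type libraries; bars are exact 95% Poisson intervals and the dotted line parts 1-library clusters from shared ones. Il33 is at 253 CPM in cluster 10 of Pdgfrb-Cre and at 10.8 CPM in cluster 4 of Pdgfra-Cre, with 72.9 to 114 CPM for the 3 libraries in cluster 8.

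Tslp, the second alarmin (ENSMUSG00000024379), was spread over more cell classes. In the stromal class it was at 6.66 CPM (4.71 to 9.14) in Pdgfra-Cre, 17.1 CPM (14.0 to 20.7) in Pdgfrb-Cre and 18.2 CPM (10.4 to 29.6) in wild type cells. The Pdgfra-Cre level was 2.74-fold lower than wild type (1.43 to 5.03), and the Pdgfrb-Cre ratio of 0.937 had an interval that included 1 (0.551 to 1.70). In the stromal class, 2 of the 7 genes (Il33 and Tslp) had the 20 UMIs needed for the Pdgfra-Cre comparison and both were at least 2-fold lower, against 9.12% of 11005 genes at least 2-fold lower and 14.3% at least 2-fold higher. For Pdgfrb-Cre, 5 members were compared in the stroma and Il33 alone was at least 2-fold higher, with none 2-fold lower, against 10.1% of 10664 genes higher and 13% lower. Scaled by the median of ratios, those background shares were 15.2% and 8.48%, after a shift of the scale by -0.24 on the log2 axis.

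The stromal class supplied 74.5% of Tslp UMIs in Pdgfra-Cre, 62.5% in Pdgfrb-Cre and 37.2% in wild type. Mural cells, the pericytes and smooth muscle of vessels, had Tslp at 5.29 CPM in Pdgfra-Cre, 23.3 CPM in Pdgfrb-Cre and 20.6 CPM in wild type on 2, 14 and 11 UMIs. Macrophages or monocytes had 2.03, 25.4 and 15.6 CPM in the same order on 1, 29 and 6 UMIs. Each of these levels rested on few UMIs. Blood endothelial cells had 4.81 CPM in Pdgfra-Cre, 6.24 CPM in Pdgfrb-Cre and 2.17 CPM in wild type. B cells had 1 Tslp UMI in all.

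Few stromal cells showed both alarmins. A Tslp UMI was seen in 28 Pdgfra-Cre, 72 Pdgfrb-Cre and 11 wild type stromal cells, and an Il33 UMI was also seen in 3, 46 and 3 of them. In Pdgfrb-Cre this was 63.9% of the Tslp cells, beside 45.6% of all its stromal cells. Of these 72 Tslp cells, 50 lay in cluster 10, where 69.8% of all Pdgfrb-Cre cells had an Il33 UMI. Tslp cells were also deeper than the class, at a median of 13117 UMIs in Pdgfrb-Cre against 10537. Cluster and depth thus both stand beside the share of 63.9%. In wild type cluster 8, all 5 Tslp UMIs came from 1 cell. The genes whose log2 level followed Tslp most closely across the 36 sums were Itga9 (r = 0.825), Adam9 (r = 0.7995) and Kank2 (r = 0.784).

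Il1rl1, which encodes ST2, was detected in 99 cells, 12 of Pdgfra-Cre, 61 of Pdgfrb-Cre and 26 of wild type. The gene (ENSMUSG00000026069) lies on chromosome 1 at 40429570 to 40465415 of GRCm38, on the plus strand, and 3′ counting does not separate its soluble and membrane forms. Of these 99 cells, 46 also had a Gata3 UMI, 35 an Areg UMI, 29 a Foxp3 UMI, 50 a UMI of Cd3e, Cd3d or Cd3g, and 64 a UMI of Rora, a transcription factor of type 2 innate lymphoid cells and tissue T cells. The cells with ST2 transcripts therefore fell into several kinds, which are described in turn.

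The level was highest in the mast or basophil class, which was named by Cpa3, Mcpt4 and Cma1. Il1rl1 reached 1573 CPM (785 to 2815) in Pdgfra-Cre, with UMIs in 2 of 2 cells, and 956 CPM (654 to 1350) in Pdgfrb-Cre, with UMIs in 5 of 8 cells. No wild type cell fell in this class.

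Among T and NK clusters, Il1rl1 lay in the cells with a Foxp3 UMI, the gene of the regulatory T cell lineage factor. In these cells it was at 132 CPM (98.9 to 173) in Pdgfrb-Cre and 59.6 CPM (33.4 to 98.4) in wild type, and the 2 Pdgfra-Cre cells had 1 UMI. The ratio of Pdgfrb-Cre to wild type was 2.21 (1.23 to 4.23), but 1 Pdgfrb-Cre cell held 21 of the 53 UMIs. The share of Foxp3 cells with an Il1rl1 UMI did not follow that ratio, at 12 of 73 (16.4%) in Pdgfrb-Cre and 11 of 50 (22%) in wild type. With cells thinned to 1000 UMIs the shares were 7.52% in Pdgfrb-Cre and 5.92% in wild type. In the Cd4, Cd8, gamma-delta and remaining T groups of any library, Il1rl1 stood between 0 and 4.19 CPM.

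Over T, NK and 2 unnamed lymphoid clusters, 29 Foxp3 cells had an Il1rl1 UMI and 123 did not. Areg was detected in 72.4% of those with Il1rl1 and 30.1% of those without, and Gata3 in 72.4% and 35.8%. Klrg1, a receptor of differentiated lymphocytes, was seen in 37.9% of those with Il1rl1 and 7.32% of those without, and Il7r, a receptor chain for TSLP and IL-7, in 86.2% and 36.6%. Ccr7, the lymph node homing receptor, ran the other way, at 37.9% with Il1rl1 and 52.0% without. Medians were 5330 and 4524 UMIs per cell, and these cells were pooled over libraries, so the shares describe the cells and compare no genotypes.

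Stromal cells also carried Il1rl1 in Pdgfrb-Cre and wild type. The level was 0 in 621 Pdgfra-Cre cells (up to 0.483% of cells could hold a UMI), 6.03 CPM (4.24 to 8.30) in Pdgfrb-Cre and 6.84 CPM (2.51 to 14.9) in wild type. In Pdgfrb-Cre, 19 of the 23 Il1rl1 stromal cells (82.6%) had an Il33 UMI too, and 19 lay in cluster 10, where 69.8% of all cells had one. In wild type, none of the 6 Il1rl1 stromal cells had an Il33 UMI, and 4 of them lay in cluster 25, where none of the 30 cells had one. B cells of all 3 libraries had no Il1rl1 UMI.

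Gata3 (ENSMUSG00000015619; chromosome 2, 9857078 to 9890034, minus strand) was mostly counted in lymphoid cells. An exception was cluster 17 of Pdgfrb-Cre, where 60 and 54 of its 119 UMIs came from 2 barcodes of 150384 and 110420 UMIs. In the T cell class it was at 43.6 CPM (32.2 to 57.6) in Pdgfra-Cre, 41.2 CPM (37.2 to 45.6) in Pdgfrb-Cre and 91.1 CPM (81.1 to 102) in wild type. The Cre libraries overlapped each other and both stood below wild type, with ratios of 0.478 (0.346 to 0.649) and 0.453 (0.388 to 0.528). A Gata3 UMI was seen in 21.2% of Pdgfra-Cre, 18.1% of Pdgfrb-Cre and 30.9% of wild type T cells. B cells had one in 0 of 25 Pdgfra-Cre, 0.105% of Pdgfrb-Cre and 0.816% of wild type cells.

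For T cells of Pdgfra-Cre, 3 members were compared (Il1rl1, Gata3 and Areg) and all 3 were at least 2-fold lower, against 8.08% of 8448 genes lower and 9.99% higher. Il1rl1 passed the filter through its 20 wild type UMIs and had 1 in Pdgfra-Cre, so its place in that count was fixed by the filter. Areg, on 14 UMIs in Pdgfra-Cre and 117 in wild type, also reached 20 UMIs in wild type only. Gata3 alone reached it in both libraries (49 and 302 UMIs), so nothing is read from the count of 3. With a stricter cell filter or another cluster resolution, other lymphoid clusters joined the T class and the Il1rl1 ratio was 2.21 to 3.51. For T cells of Pdgfrb-Cre, Gata3 was the 1 of 3 members at least 2-fold lower and none was 2-fold higher, against 17.4% of 9883 genes lower and 9.82% higher. That call ended by median of ratios (0.552) and at cluster resolutions 0.5 and 2 (0.534 and 0.538), where the ratio stayed below 1. Scaled by the median of ratios, the background was 10.6% lower and 7.15% higher in Pdgfra-Cre, and 10.9% lower and 15.5% higher in Pdgfrb-Cre, after shifts of 0.17 and -0.29 (log2).

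The make-up of the T cell class differed between libraries. Cells with Cd8 transcripts were 54.5% of T cells in Pdgfra-Cre, 52.2% in Pdgfrb-Cre and 31.1% in wild type, and Foxp3 cells were 1.21%, 5.05% and 8.45%. Within Cd8 cells of the T and NK clusters, Gata3 was at 48.9 CPM in Pdgfra-Cre, 34.9 CPM in Pdgfrb-Cre and 52.0 CPM in wild type, with ratios of 0.941 (0.648 to 1.36) and 0.671 (0.510 to 0.892). Within Cd4 cells it was at 61.1 CPM on 5 UMIs in Pdgfra-Cre, 49.2 CPM in Pdgfrb-Cre and 127 CPM in wild type, where the Pdgfrb-Cre ratio was 0.388 (0.268 to 0.554). Within Foxp3 cells it was at 105 CPM in Pdgfrb-Cre and 223 CPM in wild type, a ratio of 0.470 (0.307 to 0.713). The lower Gata3 of Pdgfrb-Cre T cells was thus also measured inside the Cd8, Cd4 and Foxp3 groups, but its interval included 1 in gamma-delta cells (0.703, 0.418 to 1.22). In Pdgfra-Cre the Cd8 interval included 1.

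The NK class, 1 cluster led by Ccl5, Gzma and Nkg7, was also made up differently. Cells with Cd8 transcripts were 66 of 161 in Pdgfra-Cre, 97 of 207 in Pdgfrb-Cre and 2 of 53 in wild type, and 4, 6 and 1 cells had an NK gene with no CD3 or T cell receptor UMI, so few cells of the class lacked T cell transcripts. It had Gata3 at 87.7 CPM in Pdgfra-Cre, 74.1 CPM in Pdgfrb-Cre and 139 CPM in wild type, with ratios of 0.630 (0.414 to 0.973) and 0.533 (0.360 to 0.804). The background in NK cells was 6.39% of 5177 genes at least 2-fold lower and 14.8% higher in Pdgfra-Cre, and 16.8% of 5630 lower and 12.1% higher in Pdgfrb-Cre. Gata3 did not reach 2-fold in either, and by median of ratios the Pdgfrb-Cre background was 8.47% lower and 21.5% higher, after a shift of -0.39 (log2). The Pdgfrb-Cre ratio was 0.961 with the stricter cell filter and 0.855 at resolution 0.5. Blood endothelial cells had 3.20 CPM on 2 UMIs in Pdgfra-Cre, 7.38 CPM in Pdgfrb-Cre and 16.7 CPM in wild type, ratios of 0.192 (0.0220 to 0.778) and 0.443 (0.206 to 0.912). Gata3 was the 1 member compared in that class, against 6.89% of 8173 genes at least 2-fold lower and 5.63% higher in Pdgfra-Cre, and 6.12% of 9286 lower and 8.82% higher in Pdgfrb-Cre. In both comparisons it passed the filter through its 23 wild type UMIs, beside 2 in Pdgfra-Cre and 13 in Pdgfrb-Cre. Nothing is read from either call. The genes whose log2 level followed Gata3 most closely were Tmem191c (r = 0.847), Cd3e (r = 0.839) and Tcf7 (r = 0.834).

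**Figure D3:**
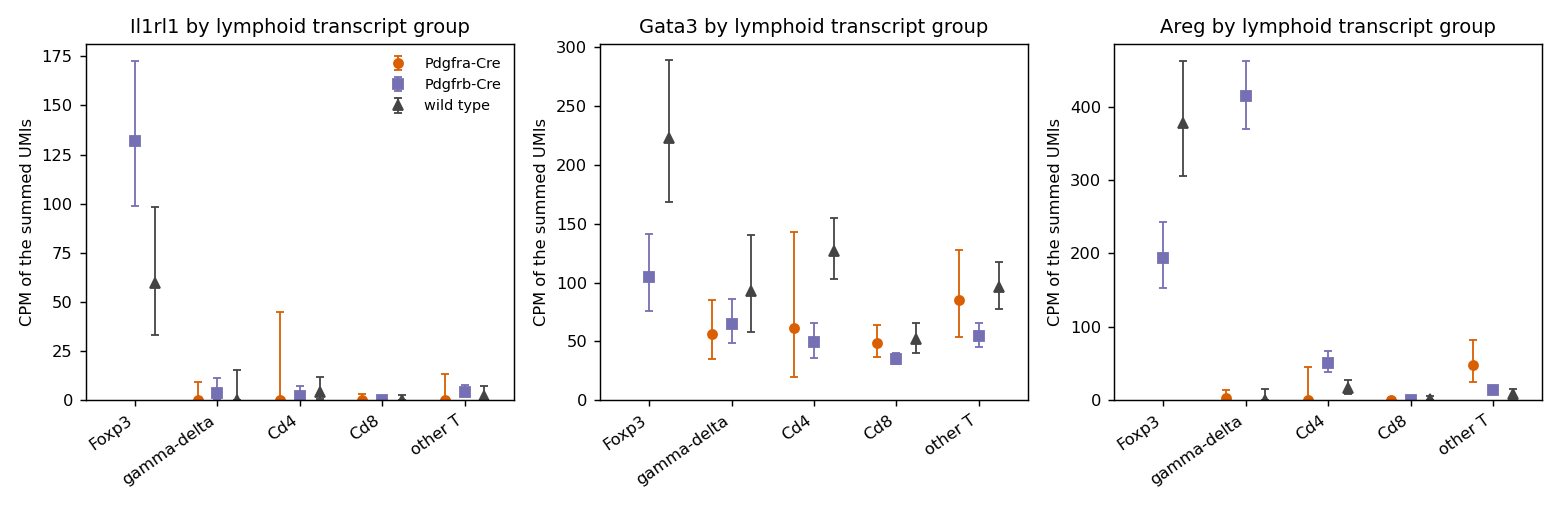
Il1rl1, Gata3 and Areg (3 panels) as CPM in lymphoid groups defined by transcripts (horizontal axis), over T and NK clusters of the Pdgfra-Cre, Pdgfrb-Cre and wild type libraries; groups under 10 cells are not drawn and bars are exact 95% Poisson intervals. Il1rl1 is near 0 outside Foxp3 cells, Gata3 of the Foxp3, Cd4 and Cd8 groups is lower for Pdgfrb-Cre than for wild type, and Areg reaches 414 CPM in gamma-delta cells of Pdgfrb-Cre.

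Il5 encodes the eosinophil growth factor interleukin-5 (ENSMUSG00000036117; chromosome 11, 53720794 to 53725106, plus strand), and Il13 encodes interleukin-13, which acts on macrophages, epithelium and stroma (ENSMUSG00000020383; chromosome 11, 53631324 to 53634702, minus strand). Both genes were detected in few cells. Their promoters and those of Il1rl1 are shown because some cells with these genes also had a Gata3 UMI. These were 5 of 5 Il5 cells, 6 of 12 Il13 cells and 46 of 99 Il1rl1 cells. The windows are the 250 bases upstream of each RefSeq start on GRCm38.p6, and capitals mark matches on either strand to AGATAA or AGATAG or TGATAA or TGATAG, letters that GATA factors are known to bind. RefSeq promoter windows were matched for 6 of the 7 genes, and Il1rl1 has a distal and a proximal start. The windows are chr11:53720544-53720793 (Il5, plus strand), chr11:53634703-53634952 (Il13, minus strand), chr1:40429320-40429569 (Il1rl1 distal, plus strand) and chr1:40439379-40439628 (Il1rl1 proximal, plus strand).
Il5: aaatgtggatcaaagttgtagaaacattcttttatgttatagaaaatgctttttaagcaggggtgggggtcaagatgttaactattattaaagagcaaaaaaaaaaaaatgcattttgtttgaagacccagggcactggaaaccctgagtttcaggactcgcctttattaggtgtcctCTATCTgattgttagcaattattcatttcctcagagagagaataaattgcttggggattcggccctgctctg
Il13: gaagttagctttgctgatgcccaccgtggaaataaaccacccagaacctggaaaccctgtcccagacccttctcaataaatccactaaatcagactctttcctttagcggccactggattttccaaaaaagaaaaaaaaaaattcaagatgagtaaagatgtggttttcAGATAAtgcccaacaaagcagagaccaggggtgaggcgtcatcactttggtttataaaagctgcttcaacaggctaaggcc
Il1rl1 distal: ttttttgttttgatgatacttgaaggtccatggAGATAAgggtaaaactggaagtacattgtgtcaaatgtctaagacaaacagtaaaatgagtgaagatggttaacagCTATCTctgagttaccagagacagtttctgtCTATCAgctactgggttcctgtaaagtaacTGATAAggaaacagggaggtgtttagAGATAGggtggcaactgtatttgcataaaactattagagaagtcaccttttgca
Il1rl1 proximal: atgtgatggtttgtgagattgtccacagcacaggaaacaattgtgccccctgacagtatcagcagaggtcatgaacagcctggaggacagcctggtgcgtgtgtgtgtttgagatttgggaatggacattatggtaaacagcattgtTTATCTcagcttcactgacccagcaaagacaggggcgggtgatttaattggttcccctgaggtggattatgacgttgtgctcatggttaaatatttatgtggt
The first base of the match lies 72 bases upstream of the Il5 start, 81 bases upstream of the Il13 start and 103 bases upstream of the proximal Il1rl1 start. At least 1 match is common, being present in 26.5% of 32851 such windows. The distal Il1rl1 window has 5 matches, a number reached or passed by 14 windows (0.0426%). The matches describe letters and do not show binding.

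All 45 Il5 UMIs came from 5 Pdgfrb-Cre cells of cluster 16, which held 2, 9, 3, 9 and 22 of them. Cluster 16 was led by Il17a, Il17f and Icos, was left unnamed, and held 17 Pdgfra-Cre, 142 Pdgfrb-Cre and 15 wild type cells. Each of the 5 cells also had Il1rl1, Gata3 and Rora UMIs, 4 had Il13, 4 had Areg and none had Foxp3. Of the 5 cells, 1 had a UMI of Cd3e, Cd3d or Cd3g (3 of Cd3g), and 4 had at least 1 UMI of a CD3 or T cell receptor constant gene. No Il5 UMI was counted in 1409 Pdgfra-Cre or 2668 wild type cells, which allows shares of up to 0.213% and 0.112%. The 5 cells were 0.128% of 3903 Pdgfrb-Cre cells (0.0416% to 0.299%), so a difference from the other libraries was not detectable at this depth.

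Il13 UMIs were found in 12 cells, 4 of Pdgfra-Cre, 6 of Pdgfrb-Cre and 2 of wild type. In Pdgfra-Cre, 2 mast cells held 6 and 1 UMIs, and 1 macrophage or monocyte and 1 stromal cell held 1 each. In Pdgfrb-Cre, 2 mast cells held 4 and 6 UMIs, and 4 Il5 cells of cluster 16 held 4, 4, 1 and 2. In wild type, 1 cell of cluster 16 held 7 UMIs and 1 cell of cluster 14, a cycling cluster, held 1. Of the 12 cells, 10 had an Il1rl1 UMI. Of the 4 Il13 mast cells, 2 had 12 and 10 UMIs of Il4, the other type 2 cytokine, and the remaining ones had none. The Il5 cells had at most 1 Il4 UMI.

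Lymphoid cells with Il1rl1 and no UMI of any CD3 or T cell receptor constant gene numbered 3, and all lay in cluster 16. The pair from Pdgfra-Cre held 11 and 2 Il1rl1 UMIs, 1 Gata3 UMI each and no Il5 or Il13, and 1 of them held 11 Areg UMIs and 5 of Calca, the precursor of CGRP. The Pdgfrb-Cre cell was the one with 22 Il5 UMIs. In cluster 16 as a whole, Il1rl1 was at 291 CPM in Pdgfra-Cre, on 20 UMIs in 3 cells, and at 49.7 CPM in Pdgfrb-Cre, on 39 UMIs in 8 cells, with none in the 15 wild type cells. Gata3 was alike in cluster 16 of the 3 libraries, at 160, 154 and 161 CPM.

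**Figure D4:**
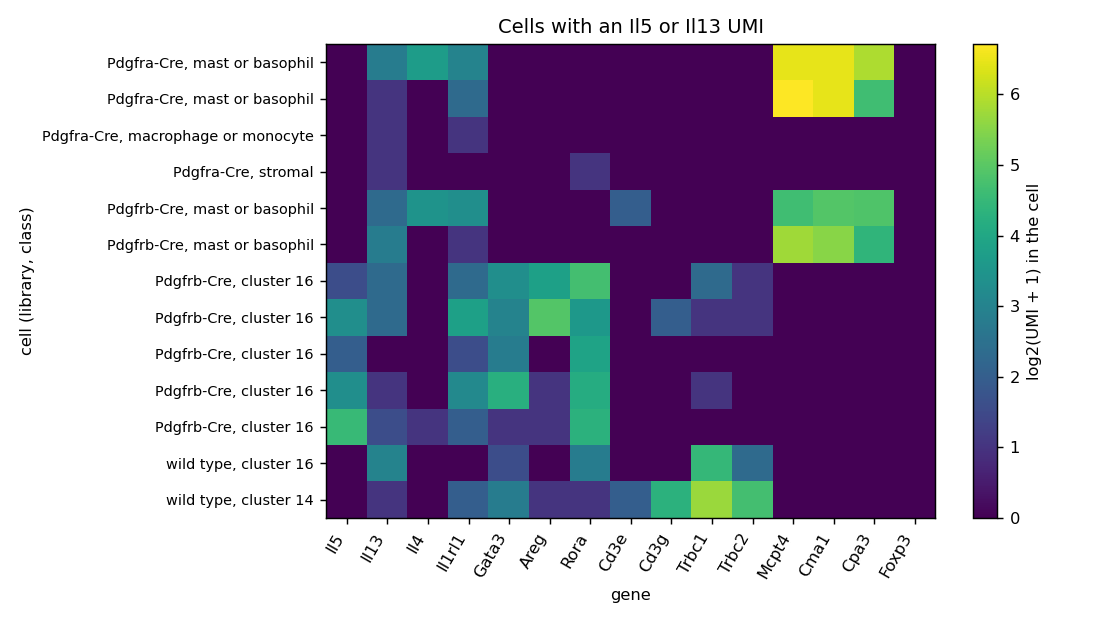
UMIs on a log2(UMI + 1) scale (colour) of 15 genes (horizontal axis) in each of the 13 cells with an Il5 or Il13 UMI (rows, by library and class). Il5 is present in 5 rows of Pdgfrb-Cre cluster 16 together with Il1rl1, Gata3 and Rora, and the 4 mast rows have Il1rl1 with Mcpt4, Cma1 and Cpa3 and no Gata3 or Rora.

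Areg encodes amphiregulin, a ligand of the EGF receptor (ENSMUSG00000029378; chromosome 5, 91139599 to 91148432, plus strand). In the T cell class it was at 12.4 CPM (6.81 to 20.9) in Pdgfra-Cre, 51.5 CPM (47.0 to 56.4) in Pdgfrb-Cre and 35.3 CPM (29.2 to 42.3) in wild type. The intervals did not overlap, but few cells set the values. In Pdgfra-Cre, 1 cell held 12 of the 14 UMIs, and in wild type 1 cell held 42 of 117. The Pdgfra-Cre ratio to wild type was 0.353 (0.187 to 0.616) and 0.0787 with the top cell of each library left out. The Pdgfrb-Cre ratio was 1.46 (1.19 to 1.80) and 1.90 without the top cells.

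The cells behind the Areg counts differed between libraries. In Pdgfrb-Cre, cells with gamma-delta T cell receptor transcripts had 414 CPM (370 to 462) on 318 UMIs in 31 of 132 cells (23.5%). In the same group, Areg was at 2.56 CPM on 1 UMI in Pdgfra-Cre, and 0 of 46 wild type cells had a UMI, which allows a share of up to 6.52%. The group was defined by a Trdc or Tcrg-C UMI and sat in different clusters by library, with 48 of its Pdgfra-Cre, 25 of its Pdgfrb-Cre and 25 of its wild type cells in the NK cluster. Of the 318 Pdgfrb-Cre UMIs, 317 lay in cluster 22, a T cell cluster led by Trdc and Il17a, where 30 of 67 gamma-delta cells had Areg. Cluster 22 held 18 Pdgfra-Cre and 2 wild type gamma-delta cells, none with an Areg UMI, so a comparison with wild type within it rests on 2 cells. In Foxp3 cells the Pdgfrb-Cre level of Areg was the lower one, with 194 CPM (154 to 242) in Pdgfrb-Cre and 378 CPM (306 to 462) in wild type, a ratio of 0.514 (0.376 to 0.701), where 1 wild type cell held 44.2% of the UMIs.

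Among all cells with an Areg UMI, 35 of 158 in Pdgfrb-Cre and 22 of 38 in wild type had a Foxp3 UMI. An Il17a UMI, the cytokine of type 17 lymphocytes, was present in 48 of the 158 Pdgfrb-Cre cells and in none of the 38 wild type or 13 Pdgfra-Cre cells. Cd4 cells had Areg at 0 CPM in 19 Pdgfra-Cre cells, 51.2 CPM in Pdgfrb-Cre and 16.02 CPM in wild type, and the Pdgfrb-Cre ratio was 3.20 (1.68 to 6.59). Cd8 cells had almost none, at 0, 0.318 and 1.51 CPM in the 3 libraries. Macrophages or monocytes had 24.4 CPM on 12 UMIs in 3 Pdgfra-Cre cells and 42.8 CPM on 49 UMIs in 9 Pdgfrb-Cre cells, with 0 of 67 wild type cells (up to 4.48%). Of the 49 UMIs, 19 came from 1 cell. Against the limit of 3 UMIs in wild type, the Pdgfrb-Cre level in macrophages was at least 5.49-fold higher, but Areg passed the filter through Pdgfrb-Cre alone and nothing is read from that call. Tslp, the other member compared there, was 1.62 times wild type (0.663 to 4.79), and 14.5% of 6583 genes were at least 2-fold higher and 9.8% lower. In Pdgfra-Cre macrophages no member had the 20 UMIs needed, and the background was 11.3% of 5001 genes higher and 12.4% lower. All 34 Areg UMIs of the Pdgfrb-Cre stromal class came from 1 cell. Il17a (r = 0.749), Pgk1 (r = 0.725) and Icos (r = 0.724) followed the log2 level of Areg most closely across the 36 sums.

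**Figure D5:**
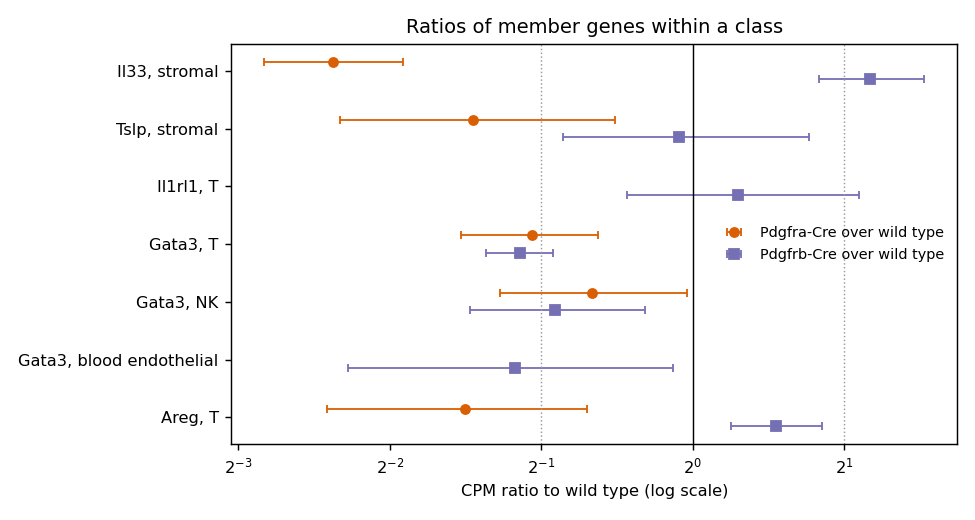
Ratios of CPM to wild type (horizontal axis, log scale) for member genes within a class (rows), for Pdgfra-Cre and Pdgfrb-Cre, with exact 95% conditional intervals; dotted lines mark 2-fold, and ratios resting on fewer counts are not drawn. Stromal Il33 lies at 0.193 for Pdgfra-Cre and 2.25 for Pdgfrb-Cre, while Gata3 in T cells lies at 0.478 and 0.453.

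Other genes of the pathway were counted in lists. Of 18 receptor and signalling genes, 14 were compared in the stroma of each Cre library. For Pdgfra-Cre, 1 was at least 2-fold higher and 7 at least 2-fold lower, with a median log2 ratio of -0.32 against 0.06 for all genes, of which 14.3% were higher and 9.12% lower. Il13ra1, the IL-13 receptor chain, was at 12.6 CPM in Pdgfra-Cre and 85.5 CPM in wild type, and Myd88, the adaptor below ST2, was at 85.5 CPM and 21.7 CPM. For Pdgfrb-Cre, 2 were higher and 3 lower, with a median of 0.05 against -0.07 for all genes, of which 10.1% were higher and 13% lower. Il4ra, the shared IL-4 and IL-13 receptor chain, was at 131 CPM in Pdgfrb-Cre and 59.3 CPM in wild type. It was also higher in other Pdgfrb-Cre classes, given below with T cells. Il2rg (0.526, 1.95 and 28.5 CPM) and Csf2rb (1.93, 2.93 and 22.8 CPM) were highest in wild type stroma, which also had the most T cell marker UMIs, and the part of those UMIs in the values was not tested.

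Among the 16 genes responsive to IL-4 and IL-13 or attracting eosinophils, 5 could be compared in stroma. In Pdgfra-Cre 2 were higher and 2 lower (14.3% and 9.12% of all genes), and in Pdgfrb-Cre 3 were higher and 1 lower (10.1% and 13%). Ccl11, the eosinophil chemoattractant eotaxin, was at 1120 CPM in Pdgfra-Cre, 649 CPM in Pdgfrb-Cre and 283 CPM in wild type. Postn, a matrix protein induced by IL-13, was at 67.8, 218 and 524 CPM in the same order. Ccl8 was at 4.205 CPM in Pdgfra-Cre and 150 CPM in wild type, and Socs1, a feedback inhibitor of cytokine signalling, was at 64.7 CPM in Pdgfra-Cre, 77.7 CPM in Pdgfrb-Cre and 20.5 CPM in wild type. The list did not move one way, since eotaxin and Socs1 were higher and Postn lower in both Cre libraries. These are levels of the whole stromal class, whose clusters differed between libraries. Ccl8 was among the top 10 genes of cluster 25, which held 30 wild type cells and no Cre cell. With doublets kept, Postn was among those of a similar cluster, in which 30 of 32 cells were wild type. The part of cluster make-up in these and the other stromal list values was not tested.

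Amphiregulin shares its receptor with other ligands, and of 11 genes of that family 5 were compared in Pdgfra-Cre stroma (2 higher, 2 lower) and 8 in Pdgfrb-Cre stroma (2 higher, 1 lower), beside the same shares of all genes. Hbegf, another EGF receptor ligand, was at 54.5 CPM in Pdgfra-Cre, 33.2 CPM in Pdgfrb-Cre and 2.28 CPM in wild type stroma. Btc, betacellulin, was at 23.8 CPM in Pdgfra-Cre and 1.14 CPM in wild type. Stromal members of the ligand list also included Il18, at 21.02 CPM in Pdgfra-Cre and 54.7 CPM in wild type, and Csf2, at 15.8 CPM in Pdgfrb-Cre and 2.28 CPM in wild type. The wild type values of Hbegf, Btc and Csf2 lay below 3.42 CPM, the level of 3 UMIs in that class. These genes passed the filter through the Cre libraries, so nothing is read from the size of their contrasts.

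In T cells, 12 receptor and signalling genes were compared in each Cre library, with 2 higher in Pdgfra-Cre, 3 higher in Pdgfrb-Cre and none lower in either. Over all genes 9.99% were higher and 8.08% lower in Pdgfra-Cre T cells, and 9.82% higher and 17.4% lower in Pdgfrb-Cre T cells, which is the background for each list that follows. Il4ra was at 132 CPM in Pdgfra-Cre, 203 CPM in Pdgfrb-Cre and 35.6 CPM in wild type. In Pdgfrb-Cre and wild type it was at 228 and 30.9 CPM in NK, 147 and 50.9 CPM in B, and 154 and 54.3 CPM in blood endothelial cells. Macrophages or monocytes, mural and dendritic cells went the same way, so higher Il4ra in Pdgfrb-Cre was not particular to stroma or T cells. Il7r was at 629 CPM in Pdgfra-Cre and 186 CPM in wild type T cells. Of the regulatory T cell programme, 11 of 14 genes were compared, and 6 were lower in Pdgfra-Cre and 3 in Pdgfrb-Cre, with none higher. Foxp3 was at 1.78 CPM in Pdgfra-Cre and 24.7 CPM in wild type, and Ctla4, an inhibitory receptor of these cells, at 40.0 and 189 CPM. Foxp3 passed the filter through wild type alone, so its place among the lower genes was fixed by the filter. Foxp3 cells were 1.21% of Pdgfra-Cre and 8.45% of wild type T cells. They are defined by a Foxp3 UMI, so this share restates the Foxp3 counts. Of the type 2 lymphocyte programme, 3 of 11 were higher and 2 lower in Pdgfra-Cre, and 2 of 12 were higher and 3 lower in Pdgfrb-Cre. Rora was the leading gene, at 217 CPM in Pdgfra-Cre, 153 CPM in Pdgfrb-Cre and 54.3 CPM in wild type. Of the ligand list, 3 genes were compared in each Cre library, with 2 lower and none higher. Il4, a gene of that list, was at 0 CPM in both Cre libraries and 6.94 CPM in wild type on 23 UMIs. It passed the filter through wild type alone, so nothing is read from its contrast.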

How the data were processed

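Per the submitters' processing notes, reads were processed with Cell Ranger 3.1.0 and STAR 2.6 on mm10. The authors deposited UMI counts per gene and barcode, with 31053 features, for 3 libraries, 1 per genotype. Total UMIs were 14438471 in Pdgfra-Cre, 30826733 in Pdgfrb-Cre and 13352288 in wild type.

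A barcode needed 500 or more genes and no more than 15% of its UMIs from mitochondrial genes. The cells with the highest doublet scores (0.8% per 1000 cells) were left out, 16, 130 and 60 in the same order. Leiden clusters (resolution 1, 30 components, 2000 variable genes, scanpy 1.11.5) were made without the 7 genes, Xist, Y-linked, mitochondrial and ribosomal protein genes, and were named from marker lists. UMIs were summed per class and library as CPM, with exact Poisson intervals for levels, Clopper-Pearson intervals for shares and exact conditional binomial intervals for ratios. Counts of 0 were replaced by 3, which makes the ratio a bound. Called genes were at least 2-fold apart in CPM with at least 20 UMIs over both libraries. Log2 list medians used 10 CPM added. Thinning was to 1000 UMIs, leaving out shallower cells. The steps were tested on simulated data.

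Named genes were the 7 members, up to 4 genes per list with the largest ratios in stromal and T cells, and the 3 genes most alike to each member with at least 100 UMIs. Members and lists were chosen with earlier results of these data known. Leiden resolution, cell filter, doublets, scaling and UMI minimum were varied. Values for single stromal clusters or T cell groups, without the cell with the most UMIs, and with the unnamed T-led clusters added were chosen after seeing the data.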

Additional observations from a re-analysis of the deposited data

Results flagged for a closer look

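In barcodes that the filters left out, Il33, Il1rl1, Il13 and Areg had intervals in Pdgfrb-Cre above those of wild type. Gata3 was lower there (18.4 CPM) than in wild type (36.0 CPM), the Tslp intervals overlapped, and Il5 had no UMI in any library. The same share over all genes was not computed, so nothing is read from the number of members. The left-out sets also differed in kind. The doublet score removed 130 of 452 left-out barcodes in Pdgfrb-Cre and 60 of 1456 in wild type. Barcodes under 500 genes were 4.75% of all Pdgfrb-Cre and 29.1% of all wild type barcodes. In the left-out Pdgfrb-Cre barcodes Il33 was at 23.1 CPM, against 6.12 CPM in wild type. Il1rl1 was at 25.2 CPM there, against 5.44 CPM in wild type, and 39 of its 48 UMIs came from 1 barcode of 86135 UMIs with 30 Pdgfra UMIs that the doublet score removed. Il13 was at 5.78 CPM, against 0 in wild type, and all 11 UMIs came from 1 barcode of 4160 UMIs with no UMI of Mcpt4, Cma1 or Cpa3. Areg was at 52.0 CPM, against 8.15 CPM in wild type, on 99 UMIs in 20 barcodes.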

How the results depend on the processing

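No paired analysis was possible because each genotype has 1 library. Of 134 alternative values of 14 ratios, 105 lay within the counting interval of the main value, 24 moved outside it, and 5 changed direction. Direction was checked only for ratios past 2-fold, so a ratio short of 2-fold that crossed 1 counts among the 105 or the 24. For stromal Il33 over wild type, Pdgfra-Cre gave 0.684 without 1-library clusters, 0.807 in cluster 8 and 0.331 in cluster 12, and Pdgfrb-Cre turned to 0.790 and 0.637 without 1-library clusters and in cluster 8, and gave 1.04 in cluster 12. Tslp was at most 0.894 for Pdgfra-Cre in cluster 12, and 0.545 (cluster 8) and 0.313 (cluster 12) for Pdgfrb-Cre. Gata3 for Pdgfrb-Cre was 0.534 and 0.538 in T cells at resolutions 0.5 and 2, 0.552 by median of ratios and 0.660 in Cd8 cells, 0.961 and 0.855 in NK cells with the stricter cell filter and at resolution 0.5, and 0.191 in endothelium as a mean per cell.

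In T cells, Areg for Pdgfra-Cre was 0.649 with the stricter filter, 0.801 at resolution 2 and 0.0787 without the top cell. For Pdgfrb-Cre it was 2.23 as a mean per cell, 3.16 in Cd4 cells, 1.87 in other T cells, 1.90 without the top cell and 0.514 in Foxp3 cells. Il1rl1 for Pdgfra-Cre turned to 2.78, 2.21 and 3.51 with the stricter filter and at resolutions 0.5 and 2, where other lymphoid clusters joined the T class, and for Pdgfrb-Cre it was 2.21 in Foxp3 cells and 2.32 in other T cells.

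With a minimum of 100 UMIs, genes at least 2-fold higher and lower numbered 915 and 339 (stroma, Pdgfra-Cre), 700 and 338 (stroma, Pdgfrb-Cre), 302 and 157 (T, Pdgfra-Cre) and 620 and 665 (T, Pdgfrb-Cre), from fewer genes tested. With a minimum of 1 UMI, lower genes were 5635, 6148 and 5114 in stroma of both Cre libraries and Pdgfrb-Cre T cells, higher genes 4074 and lower genes 1061 in Pdgfra-Cre T cells. By median of ratios, lower genes were 904 in Pdgfrb-Cre stroma, and Pdgfrb-Cre T cells had 1534 higher and 1082 lower. With a gate of 2 Foxp3 UMIs, Gata3 was in 82.4% of wild type and Areg in 51.4% of Pdgfrb-Cre Foxp3 cells. Except where a setting's own make-up or rule is given, the cause was not tested.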
